A study of Homo sapiens with 12 samples.

Results

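The MYC, MAX and MXD network is a set of basic helix-loop-helix leucine zipper proteins that compete for the same partner, MAX, and for the same DNA motif, the E-box CACGTG. MYC paired with MAX activates genes of growth, ribosome production and metabolism. The MXD proteins and MNT pair with MAX instead and recruit the SIN3 histone deacetylase complex, and MLX pairs with the glucose sensor MLXIP in a parallel branch. The 10 genes described here, of 58302 in the files, were MYC, MAX, MXD1, MXI1, MXD3, MXD4, MNT, MLX, MLXIP and MGA. They were chosen by name, together with an earlier result of the same data: MXD1 and MXI1 had been seen to fall in both lines, so the change of those genes after NUF2 knockdown is given as a description with no test. The other 8 genes completed the network.

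RNA was sequenced from 2 cell lines, 769-P and ACHN, both labelled as clear cell renal cell carcinoma (ccRCC), 48 h after transfection. The siNUF2 libraries came from cells given siRNA against NUF2, a subunit of the Ndc80 kinetochore complex, and the siControl libraries from cells given a control siRNA. A supplementary legend of the study describes a mix of siRNA-NUF2-2 and siRNA-NUF2-3 for its experiments after a first test. The labels of these libraries name no single siRNA. Each line had 3 siNUF2 and 3 siControl libraries numbered 1 to 3, and nothing says that these came from separate cultures, so p-values measure the spread between the libraries, which may be technical. Both lines are established and grown as cultures of 1 cell type, but in bulk RNA fewer cells that transcribe a gene and less RNA per cell cannot be told apart.

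NUF2 itself was at 4.17, 3.86 and 3.01 FPKM (fragments scaled for gene length and sequencing depth) with siNUF2 in 769-P and at 19.4, 17.8 and 17.8 FPKM with siControl, so 20.1% of the siControl mean was left. In ACHN it was at 2.16, 5.14 and 4.25 FPKM against 11.6, 15.01 and 14.8 FPKM, or 27.9%. The knockdown was deepest in library 1 of ACHN, at 18.7% of its control, and shallowest in library 2, at 34.2%. The recovered reads ran from 27628575 to 36542367 per library. The renal markers PAX8, PAX2, VIM, KRT8 and KRT18 were present in both lines, whereas CA9, a hypoxia target typical of ccRCC, averaged between 0.0193 and 0.0625 FPKM in the 4 groups. EPAS1, which encodes HIF-2α, was at 2.10 ± 0.442 FPKM in 769-P and at 42.7 ± 31.6 FPKM in ACHN (siControl, SD, n = 3). The 9 markers of leukocytes, endothelium, fibroblasts and hepatocytes summed to between 0.0598 and 0.196 FPKM in all libraries.

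The sequences that bear on MXD1 and MXI1 are shown first. The 7 bases that pair with the seed of siRNA-NUF2-2 (guide bases 2 to 8) were searched on the sense strand in the longest annotated 3′ UTR of each gene, since siRNAs can act on such partial matches. The match is TTAAGCA for siRNA-NUF2-2 and TTGAGAG for siRNA-NUF2-3, from the siRNA sequences in the study's methods. MXD1 held 2 matches to the first, MXI1 held 1 and MGA held 1, and the other 7 genes held none. MGA also held the only match to the second. Of 10905 genes tested in 769-P with an annotated 3′ UTR, 14.2% held the first match and 14.4% the second. The UTRs searched were 4661 bases long in MXD1, 2378 in MXI1 and 5801 in MGA, against a median of 1385. That of MLXIP, which held no match, was 5535 bases long. The 29 bases around each match, read from GENCODE release 29 on GRCh38 in the sense of the mRNA, are given with the match in capitals.
MXD1, chr2:69940247-69940275, forward strand: gcttcctggatTTAAGCAgagtgatagtg
MXD1, chr2:69940979-69941007, forward strand: gttttgtctttTTAAGCAagatgaaaacc
MXI1, chr10:110285132-110285160, forward strand: aggacctgtatTTAAGCAaatacttagca
MGA, siRNA-NUF2-2, chr15:41767282-41767310, forward strand: cttacttgtccTTAAGCAgaagccaggct
MGA, siRNA-NUF2-3, chr15:41769993-41770021, forward strand: ctaagacatatTTGAGAGaggtgccactg

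The promoters of MXD1 and MXI1 were compared for shared motifs, because both genes were lower in both lines. RefSeq (GRCh38.p14) lists 1 start site for MXD1 and 3 for MXI1, and the FPKM, which have 1 value per gene, do not separate the latter. The windows run from 250 bases before to 50 bases after each start site. Capitals mark GGGCGG (the GC box), CCAAT and the E-box CACGTG on either strand.
MXD1, chr2:69914859-69915158, forward strand: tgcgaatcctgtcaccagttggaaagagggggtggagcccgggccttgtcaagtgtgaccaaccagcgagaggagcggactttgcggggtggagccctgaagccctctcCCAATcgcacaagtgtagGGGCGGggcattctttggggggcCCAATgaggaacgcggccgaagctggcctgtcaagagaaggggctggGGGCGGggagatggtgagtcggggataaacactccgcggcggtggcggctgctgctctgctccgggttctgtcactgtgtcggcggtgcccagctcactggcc
MXI1 start 1, chr10:110207355-110207654, forward strand: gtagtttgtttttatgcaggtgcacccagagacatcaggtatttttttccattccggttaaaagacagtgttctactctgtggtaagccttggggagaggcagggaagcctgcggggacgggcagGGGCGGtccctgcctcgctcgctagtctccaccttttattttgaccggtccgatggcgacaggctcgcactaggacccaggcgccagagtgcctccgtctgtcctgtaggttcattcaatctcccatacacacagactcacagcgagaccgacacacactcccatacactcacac
MXI1 start 2, chr10:110209981-110210280, forward strand: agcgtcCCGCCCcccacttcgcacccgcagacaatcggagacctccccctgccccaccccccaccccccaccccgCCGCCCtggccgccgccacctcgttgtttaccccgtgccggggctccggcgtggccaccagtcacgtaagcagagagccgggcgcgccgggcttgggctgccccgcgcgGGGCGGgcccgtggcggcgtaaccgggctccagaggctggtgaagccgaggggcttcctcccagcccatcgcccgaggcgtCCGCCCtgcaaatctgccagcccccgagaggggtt
MXI1 start 3, chr10:110225746-110226045, forward strand: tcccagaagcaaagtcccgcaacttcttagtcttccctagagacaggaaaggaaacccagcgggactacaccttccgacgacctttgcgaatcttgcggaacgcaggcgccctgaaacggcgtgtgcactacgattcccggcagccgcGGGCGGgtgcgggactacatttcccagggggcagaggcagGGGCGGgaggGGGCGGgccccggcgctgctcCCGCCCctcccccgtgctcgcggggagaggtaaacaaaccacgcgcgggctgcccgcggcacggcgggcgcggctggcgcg

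The motif shared by all 4 windows was the GC box, with 2 matches at MXD1 and 1, 4 and 4 at MXI1. It was also the commonest of the motifs searched, in 45% of 35116 RefSeq promoters. CCAAT occurred at 2 places in the MXD1 window and in none of the MXI1 windows, against 34.6% of all promoters. The E-box CACGTG, which is palindromic, was in none of these 4 windows and in 7.26% of all promoters. Among the other members with a promoter in the table (9 of the 10 in all), MXD4, MNT and MLX held 1 CACGTG each.

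The levels of the network genes differed widely, and MYC was far above all of its partners. MYC, the activating transcription factor of the network, averaged 81.6 ± 9.61 FPKM in 769-P and 68.7 ± 11.3 FPKM in ACHN with siControl (SD, n = 3). MLXIP, the glucose sensor that pairs with MLX, followed in 769-P at 11.02 ± 0.697 FPKM. MAX, the obligate partner of MYC, stood at 5.33 ± 0.296 FPKM there, and the ratio of MYC to MAX was 15.4 ± 2.14. In ACHN, MAX was at 14.6 ± 1.42 FPKM and level with MLXIP at 14.4 ± 0.670 FPKM, and the ratio of MYC to MAX was 4.77 ± 1.17. The lowest members with siControl were MXD1 in 769-P, at 1.19 ± 0.131 FPKM, and MXD3 in ACHN, at 1.38 ± 0.522 FPKM. Neighbours in the order whose libraries overlapped were MXD4, MXI1, MXD3 and MAX in 769-P, and MAX with MLXIP, MXI1 with MXD4, MXD4 with MNT, and MGA with MXD1 in ACHN. The related genes MYCN, MYCL and MLXIPL reached at most 0.466 FPKM in any library, below the minimum for testing. All 10 members passed that minimum in both lines.

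**Figure D1:**
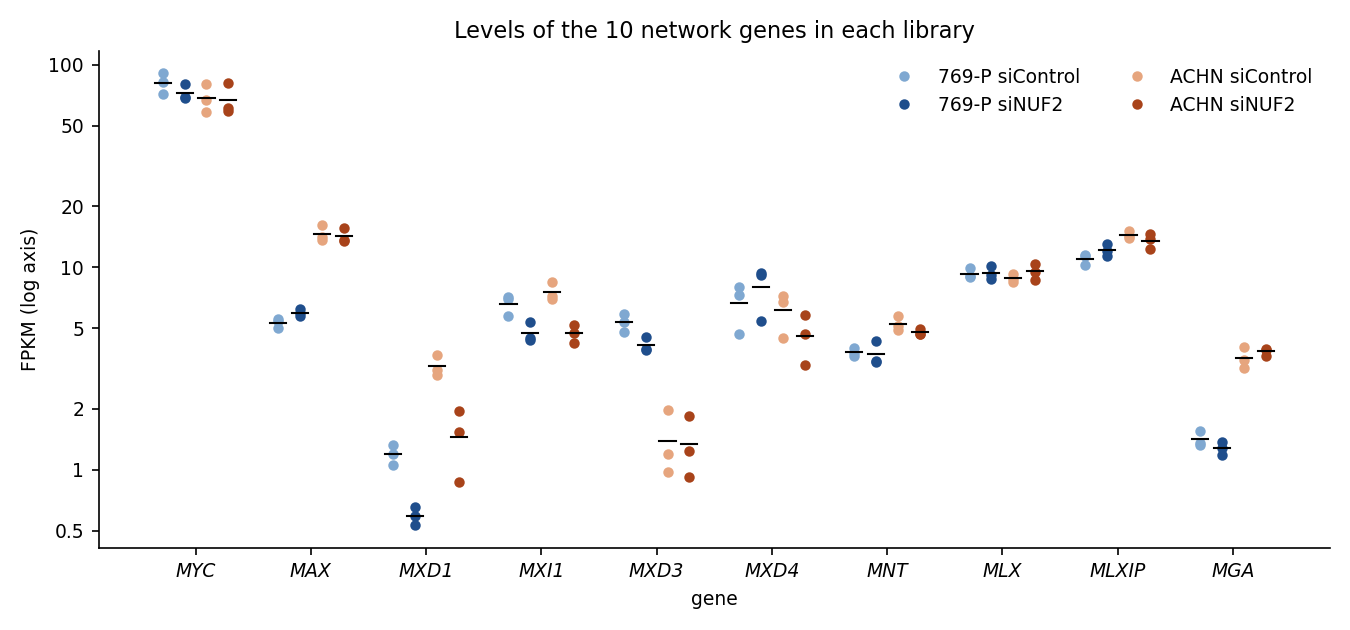
FPKM (log axis) of the 10 genes in each of the 12 libraries, with 1 point per library, 4 colours for the 4 groups and a bar at each group's mean. The siNUF2 points of MXD1 and MXI1 lie below all siControl points of the same line, and MYC lies above every other gene in every library.

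Without knockdown, 6 of the 10 members differed between the lines, a comparison that played no part in their choice. It asked how the network is set in the 2 lines before NUF2 is removed, in limma over the 6 siControl libraries with Benjamini-Hochberg (BH) adjustment at 0.05. Of all genes tested, 61.5% passed, 32.2% higher and 29.3% lower in 769-P, so a count of 6 in 10 is near the background. With the replicate number as a block 6 members passed too, beside 59.5% of all genes (31.0% higher and 28.4% lower). The libraries of the lines did not overlap for the 6 members that passed, and did not for 68.3% of all genes. MAX was lower in 769-P than in ACHN, with a log2 difference of −1.40 (limma, BH-adjusted p = 6.9e-05), with 5.45, 4.997 and 5.56 FPKM against 14.03, 13.6 and 16.2 FPKM. MXD1, a MAX-binding repressor that rises in differentiating cells, was lower in 769-P, with a log2 difference of −1.34 and 95% interval of −1.71 to −0.97. MGA, the large scaffold of the PRC1.6 Polycomb complex that also binds MAX, was lower, with a log2 difference of −1.23 and interval of −1.58 to −0.89.

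MXD3, the repressor of the family that is most often linked to dividing cells, went the other way. It was at 5.39, 5.87 and 4.80 FPKM in 769-P and at 0.977, 1.97 and 1.19 FPKM in ACHN, a log2 difference of 1.97 (SE 0.251, limma, BH-adjusted p = 0.00059). The lowest 769-P library was above the highest ACHN library. The 13 S phase markers were all higher in 769-P under siControl, and the part of that in the MXD3 level was not tested. MXD3 shares 22.5% of its exon bases with the antisense gene PRELID1 and 18% with RAB24 on its own strand, and the strand setting of the counting was not given, so reads in those stretches cannot be assigned with certainty.

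Smaller differences were found for MNT and MLXIP. MNT, the broadly expressed MAX-binding antagonist of MYC, was lower in 769-P, with a log2 difference of −0.41 (limma, BH-adjusted p = 0.0162). That call was lost without siControl replicate 1 of 769-P (adjusted p = 0.0553). MLXIP was lower too, with a log2 difference of −0.35 (limma, BH-adjusted p = 0.0157), and its call was lost without siControl replicate 3 of 769-P (adjusted p = 0.0615). The remaining 4 members did not pass, with log2 differences of 0.29 for MYC, −0.15 for MXI1, 0.15 for MXD4 and 0.11 for MLX. MYC passed without siControl replicate 2 of ACHN (adjusted p = 0.0348). Its interval ran from −0.060 to 0.65 with all 6 libraries.

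**Figure D2:**
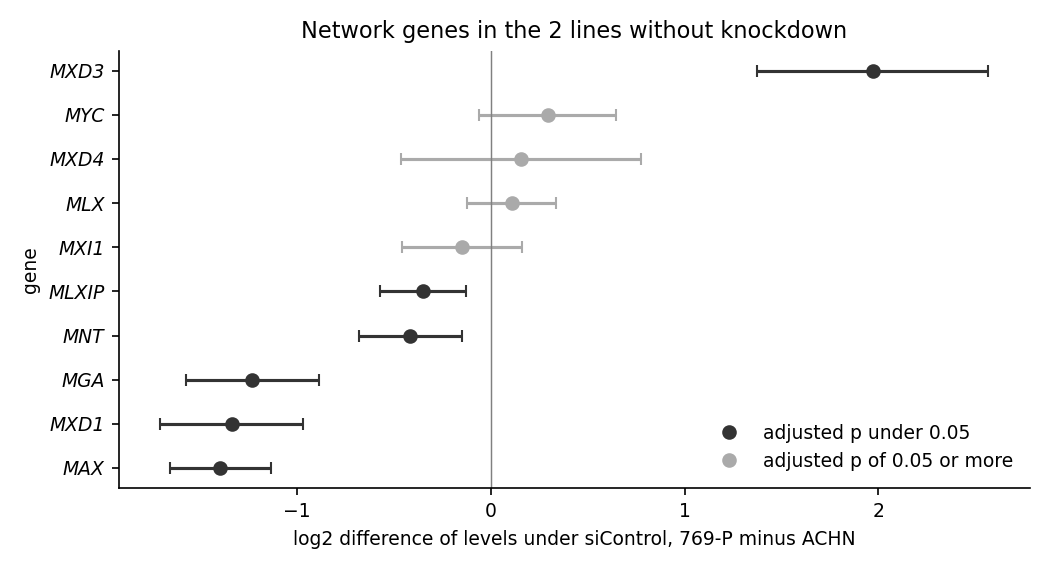
Log2 difference of the level of each gene between 769-P and ACHN under siControl (horizontal axis), with the limma estimate as a point and its 95% interval as a bar, dark where the adjusted p was under 0.05. MAX, MXD1 and MGA lie below −1 and MXD3 lies near 2.

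The repressors MXD1 and MXI1 were lower with siNUF2 in every library of both lines. In 769-P, MXD1 was at 0.532, 0.657 and 0.594 FPKM with siNUF2 and at 1.06, 1.32 and 1.19 FPKM with siControl. The siNUF2 group was thus at 49.9% of the siControl mean, and the 3 libraries were between 49.7% and 50.2% of the control of the same number. These levels rest on 106 to 120 reads with siNUF2 and 198 to 269 reads with siControl, the lowest numbers of any member in this line. In ACHN, MXD1 was at 0.870, 1.96 and 1.54 FPKM against 2.93, 3.10 and 3.71 FPKM, or 44.8% of the siControl mean. The spread there was wider, from 29.6% in library 1 to 63.1% in library 2. Those ACHN libraries were also the ones with the deepest and the shallowest loss of NUF2, a relation that was not tested. The loss of NUF2 varied less between the libraries of 769-P, and the relation was not tested there either. NUF2 was left there at 21.5%, 21.7% and 16.9% of the control of the same number, and MXD1 at 50.2%, 49.7% and 49.8%.

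MXI1, which encodes another MXD-type repressor and competes with MYC for MAX, was less reduced. It was at 4.45, 5.38 and 4.37 FPKM with siNUF2 in 769-P and at 5.75, 7.11 and 6.99 FPKM with siControl, or 71.6% of the siControl mean. In ACHN it was at 4.76, 5.20 and 4.24 FPKM against 8.42, 7.21 and 6.97 FPKM, or 62.8%. No siNUF2 library reached the lowest siControl library in either line. The log2 change on the log2(FPKM + 0.1) scale was −0.88 for MXD1 and −0.46 for MXI1 in 769-P, and −1.15 and −0.64 in ACHN. Ordered by that change, 1.71% of all genes tested in 769-P lay below MXD1 and 7.81% below MXI1, and 0.549% and 2.31% did in ACHN. Between the lines the log2 changes differed by 0.26 (SE 0.333) for MXD1 and by 0.17 (SE 0.178) for MXI1, both more negative in ACHN. Over all settings run, the difference for MXD1 ran from −0.0434 to 0.505, so its direction was not stable. Groups that do not overlap were found for 4 of 10 members in 769-P (MXD1, MXI1 and MXD3 lower, MAX higher), against 33.3% of all genes, 17.3% lower and 16.0% higher. In ACHN they were found for MXD1 and MXI1, against 14.3% of all genes, 6.44% lower and 7.86% higher. All 3 pairs had the same sign for 7 of 10 members in 769-P and 5 of 10 in ACHN, beside 63.0% and 54.8% of all genes. Nothing is read from these counts for MXD1 and MXI1, which were chosen for this change.

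The other MXD genes passed the test only with the block, MXD3 lower in 769-P, and MXD4 higher in 769-P and lower in ACHN. MXD3 was at 4.54, 3.91 and 3.95 FPKM with siNUF2 in 769-P, and all 3 values lay below the siControl values given above. Its log2 change there was −0.35 (SE 0.108), with a BH-adjusted p of 0.0872 from limma and of 0.0385 with the replicate number as a block. In ACHN, MXD3 was at 0.923, 1.85 and 1.24 FPKM, which puts the siNUF2 mean at 97.0% of siControl, with a log2 change of −0.02 (SE 0.338).

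MXD4, the family member typical of resting and differentiated cells, moved in opposite directions in the 2 lines when libraries of the same number were compared. It was at 5.41, 9.13 and 9.38 FPKM with siNUF2 and at 4.69, 8.02 and 7.32 FPKM with siControl in 769-P. Every siNUF2 library was above its own control, by 0.21, 0.19 and 0.37 on the log2 scale. In ACHN it was at 4.68, 5.83 and 3.28 FPKM against 6.71, 7.21 and 4.45 FPKM. Every siNUF2 library there was below its own control, with log2 changes of −0.48, −0.30 and −0.41. The groups overlapped in both lines, because library 1 of 769-P and library 3 of ACHN were low under both siRNAs. Without the block neither change passed in limma (BH-adjusted p = 0.578 in 769-P and 0.825 in ACHN), and with it MXD4 rose in 769-P (0.0347) and fell in ACHN (0.0265). The difference between the lines was 0.65 on the log2 scale, with a BH-adjusted p of 1.00 from limma without the block and 0.0364 with it. In that interaction 0 of 16564 genes passed without the block (776 at an unadjusted p under 0.05, and 0 by limma-voom on recovered reads), and 1.5% passed with it, 0.863% with a higher and 0.64% with a lower change in 769-P.

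MYC did not pass the test in either line, with or without the block. With siNUF2 it was at 80.8, 69.5 and 68.3 FPKM in 769-P, against 90.7, 82.6 and 71.6 FPKM with siControl. Its log2 change was −0.15 with a 95% interval of −0.41 to 0.11 (limma, BH-adjusted p = 0.438). All 3 pairs were lower in 769-P, at 89.1%, 84.2% and 95.4% of the control of the same number, and with the block the interval was −0.28 to −0.024 (limma, BH-adjusted p = 0.0804). In ACHN it was at 61.0, 80.9 and 58.8 FPKM against 66.8, 80.8 and 58.5 FPKM, so library 2 was the highest under both siRNAs. The log2 change there was −0.02 with an interval of −0.45 to 0.40.

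MAX, MNT, MLX, MLXIP and MGA moved little. MAX was at 6.20, 5.92 and 5.72 FPKM with siNUF2 in 769-P, all above the siControl libraries, with a log2 change of 0.16 (limma, BH-adjusted p = 0.243). Its mean in ACHN was 97.7% of siControl. MNT stood at 97.9% of siControl in 769-P and 90.9% in ACHN, MLX at 100.3% and 107.7%, MLXIP at 110.6% and 93.7%, and MGA at 90.4% and 108.1%. The groups of these 4 genes overlapped in both lines. MGA was at 1.18, 1.37 and 1.28 FPKM with siNUF2 in 769-P against 1.36, 1.55 and 1.33 FPKM, and at 3.65, 3.91 and 3.96 FPKM against 3.17, 3.47 and 4.02 FPKM in ACHN. Among the 8 members whose change did not choose them, 0 passed in limma without the block in either line, where 9.98% of all genes passed in 769-P (5.26% higher and 4.71% lower) and 0 of 15116 in ACHN (1238 at an unadjusted p under 0.05). At an unadjusted p under 0.05 these were 1 of 8 in 769-P, beside 3883 of 14155 genes, and 0 of 8 in ACHN. Limma-voom on recovered reads called 0 of the 8 in both lines, beside 13.2% of all genes in 769-P and 0 in ACHN. With the block, MXD3 and MXD4 passed in 769-P and MXD4 in ACHN, beside 27.5% and 12.2% of all genes. NUF2 itself, with a log2 change of −1.87 in ACHN, passed there only with the block. Its BH-adjusted p from limma was 0.224 without the block and 0.0122 with it. A member that did not pass in ACHN is therefore not shown to be unchanged.

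Summed over MXD1, MXI1, MXD3 and MXD4, the level of repressor mRNA was lower with siNUF2 in all 3 pairs of both lines. The sum was at 19.8 ± 2.75 FPKM with siControl and 17.4 ± 2.20 FPKM with siNUF2 in 769-P, where the libraries overlapped. In ACHN it was at 18.3 ± 1.72 FPKM and 12.1 ± 2.39 FPKM (SD, n = 3), with no overlap. MYC relative to this sum was 4.1996 ± 1.02 and 4.26 ± 0.994 in 769-P. In ACHN the ratio was 3.75 ± 0.348 with siControl and 5.53 ± 0.153 with siNUF2, and the lowest siNUF2 library was at 5.43 against a highest control of 4.14. Since the sum holds the genes chosen for their fall, no test was made of it or of the difference between the lines. MXD1 made up 5.87% to 6.27% of the sum with siControl in 769-P, and 15.4% to 22.7% in ACHN.

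**Figure D3:**
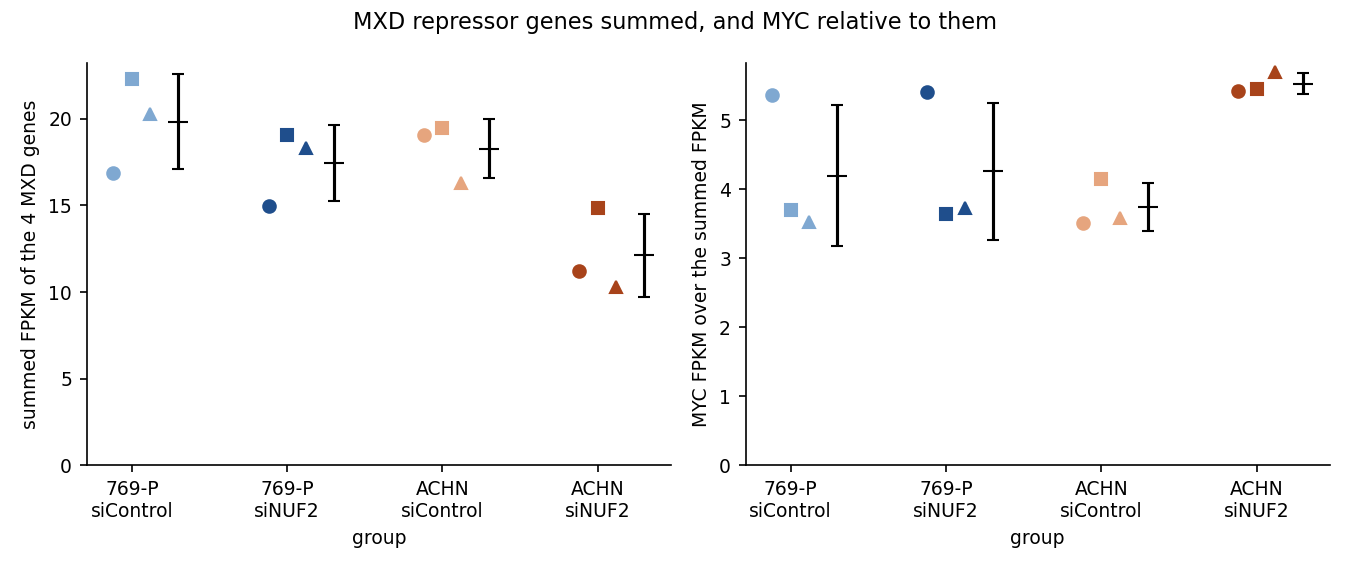
Summed FPKM of the 4 MXD genes (left) and MYC FPKM divided by that sum (right), with 1 symbol per library (circle, square and triangle for numbers 1, 2 and 3) and mean ± SD beside them. The ACHN siNUF2 ratios lie between 5.43 and 5.71, above the ACHN siControl ratios, while both 769-P groups span the same range.

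The genes whose pattern over the 12 libraries was most like that of MXD1, by the root-mean-square log2 difference after centring each line among 12930 genes, were IGF2BP3 (0.175), YEATS4 (0.217) and BMT2 (0.226). MXD1's own root-mean-square deviation was 0.569. For MXI1 the nearest were ORMDL3 (0.0798), FGD4 (0.107) and AC141586.1 (0.117). These genes were picked for patterns that include the knockdown change, and the likeness is a description.

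An annotated 3′ UTR was available for 10905 of the 14155 genes tested in 769-P and 11496 of the 15116 in ACHN. Across those genes, the change after siNUF2 was lower the more siRNA-NUF2-2 seed matches a 3′ UTR held. In 769-P the median log2 change was 0.0038 for 9356 genes with no match, −0.08 for 1287 genes with 1 and −0.16 for 262 genes with 2 or more. Genes called lower made up 4.39%, 10.9% and 17.2% of these. In ACHN the medians were 0.02, −0.05 and −0.10, and with the block 4.74%, 12.4% and 18.3% were called lower. The median 3′ UTR grew with the number of matches in 769-P, from 1181 to 3027 and 4970 bases, so length moved with the count. For the seed of siRNA-NUF2-3, which was in MGA alone among the members, the medians in 769-P were −0.0048, −0.02 and −0.07. Genes called lower made up 5.04%, 7.9% and 8.39% of those classes. In ACHN the medians for that seed were 0.01, 0.002 and −0.04, and with the block 5.56%, 8.2% and 9.03% were called lower. The median 3′ UTR grew there too, from 1184 to 2991 and 5283 bases in 769-P. The part of length in either trend was not tested. The places of MXD1 and MXI1 among these classes follow from how they were chosen, and nothing is read from them. The part of these matches in the lower levels of MXD1 and MXI1 was not tested. Which siRNAs went into the sequenced libraries is not given in the labels, so a match to either seed is a match to an siRNA of the study and not to one known to be in these cells.

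The corepressors that MXD proteins and MNT recruit were measured next. Of 15 SIN3 complex genes, 2 rose and 0 fell in 769-P (limma, BH-adjusted), with a median log2 change of 0.004 against −0.01 over all genes. They were HDAC1, the histone deacetylase, with a log2 change of 0.59 (SE 0.0614), and RBBP4, a histone-binding subunit, with 0.32 (SE 0.0622). In ACHN 0 of 15 passed without the block, and 3 rose and 1 fell with it, among them HDAC1 at 0.51 and RBBP4 at 0.34, with the histone-fold binder ARID4A falling by 0.41 on the log2 scale. HDAC1 was thus at 84.7 ± 3.13 FPKM with siNUF2 against 56.8 ± 1.68 FPKM in 769-P, and at 35.1 ± 2.12 against 25.1 ± 2.89 FPKM in ACHN (SD, n = 3).

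Among 10 partners of MGA in PRC1.6, PCGF6, the subunit that defines the complex, rose by 0.50 on the log2 scale in 769-P and, with the block, by 0.75 in ACHN. CBX3, which encodes HP1γ, fell by 0.32 in 769-P. In ACHN, WDR5 rose and RNF2, the ubiquitin ligase of the complex, fell with the block. The list's median log2 change was −0.07 in 769-P and −0.04 in ACHN. Of 10 cofactors of MYC, 0 passed without the block in either line. With it, the ATPase RUVBL2 rose by 0.41 in 769-P and 0.37 in ACHN, MCRS1 rose in ACHN and ACTL6A fell in 769-P. Of 11 genes of MYC protein turnover, 0 passed without the block in either line, and with it STUB1, a ubiquitin ligase, rose by 0.32 on the log2 scale in 769-P.

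The genes that MYC and MAX are known to drive were counted on a list of 63. In 769-P 61 were tested, and 1 rose and 3 fell, with a median log2 change of −0.02. NOLC1, a nucleolar chaperone of ribosome production, rose from 23.9 ± 4.58 to 40.3 ± 7.22 FPKM, while DUSP2, a phosphatase of MAP kinases, and HK2, a hexokinase, fell by 0.67 and 0.33 on the log2 scale. With the block 7 of the 61 rose and 13 fell, beside 13.6% and 13.9% of all genes. In ACHN 0 of 60 passed without the block, 18 rose and 0 fell with it, and the median was 0.13 against 0.01 over all genes. Of all genes tested, 7.14% rose and 5.05% fell with the block. NOLC1 rose there from 27.0 ± 6.92 to 60.5 ± 7.11 FPKM and TCOF1, a nucleolar factor, from 8.07 ± 0.921 to 11.8 ± 0.821 FPKM. Under siControl, 41 of 62 were higher and 8 lower in 769-P than in ACHN, with a median log2 difference of 0.56 against 0.04 over all genes.

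The same libraries differed in cell cycle markers. With the block, 8 of 13 S phase and 7 of 15 G2/M markers rose in ACHN and none fell, with medians of 0.46 and 0.20 on the log2 scale. Of all genes tested there, 7.14% rose and 5.05% fell with the block. E2F1 rose by 0.81 and MCM3 by 0.60. In 769-P those medians were 0.10 and 0.04. With the block 3 of 13 S phase markers rose and 1 fell, and 5 of 15 G2/M markers rose and 1 fell. The shares of all genes in 769-P were 13.6% higher and 13.9% lower with the block. There CENPF and BIRC5 were the G2/M markers that passed without the block, rising by 0.36 and 0.57. In ACHN the S phase markers summed to 222 to 293 FPKM with siControl and 341 to 373 FPKM with siNUF2. The part of the cell cycle in the ACHN values of the MYC-driven genes was not tested.

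Of 9 genes that MYC is known to repress, 8 were tested in each line. CDKN1C and CDKN1B, inhibitors of cyclin-dependent kinases, fell in 769-P by 1.71 and 0.58 on the log2 scale, and 0 rose. Of all genes tested there, 4.71% fell and 5.26% rose. CDKN1C averaged 0.326 FPKM with siNUF2, a low level. With the block 4 of the 8 fell in 769-P, beside 13.9% of all genes. In ACHN 0 passed without the block, and with it CDKN1A, another such inhibitor, and FTH1, which encodes ferritin heavy chain, fell by 0.78 and 0.34. Of all genes tested in ACHN, 5.05% fell with the block. The medians of the list were −0.26 in 769-P and −0.39 in ACHN, against −0.01 and 0.01 over all genes. Of 6 genes of the glucose response that runs through MLX and MLXIP, PKLR, a pyruvate kinase, fell in 769-P from 2.11 ± 0.799 to 0.701 ± 0.272 FPKM (limma, BH-adjusted p = 0.0495), a call not made under 6 of the 9 other settings. TXNIP, its best known target, fell in ACHN with the block only, by 0.44 on the log2 scale.

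Of 10 interferon-stimulated genes, 8 were tested in 769-P, all with a log2 change above 0 and a median of 2.44. IFIT1 and IFI44 rose by 2.65 and 2.70 without the block, and all 8 passed with it. In ACHN the median was −0.14, and IFIT3 and IFIT2 fell with the block. The list summed to 97.6 to 359 FPKM with siNUF2 in 769-P, and to 29.6 to 68.2 FPKM with siControl. Of 6 renal markers tested in 769-P, PAX8 fell by 0.44 on the log2 scale without the block and 0 rose. With the block 4 rose and 1 fell, beside 13.6% and 13.9% of all genes. The list's median log2 change there was 0.19. In ACHN 0 of 6 renal markers passed without the block. With it 3 rose, EPAS1 and KRT8 among them, and 0 fell, beside 7.14% and 5.05% of all genes. Of 10 hypoxia-induced genes 0 passed without the block in either line, and with it SLC2A1 rose and BNIP3 and ADM fell in 769-P, and ADM rose in ACHN. The part of these changes in the values of the network genes was not tested.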

How the data were processed

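RNA-seq of 12 libraries was analysed from the FPKM that the authors deposited, 1 value per gene and library. The reads were filtered with fastp, and the submitters' processing notes name HISAT2 2.0.5, featureCounts 1.5.0-p3 and hg38. The strand setting was not given in the sources used here. Members and gene lists were chosen with earlier results of these data known.

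For each comparison libraries were scaled to each other (log ratios averaged after trimming 30%, and 5% by level). Limma 3.58.1 (R 4.3.3) with a trend was then applied to log2(FPKM + 0.1), for genes of at least 0.5 FPKM in at least 3 libraries. Benjamini-Hochberg adjustment was over all genes tested, 14155 in 769-P, 15116 in ACHN, 15376 between the lines under siControl and 16564 for the interaction. Fold changes of low genes such as MXD1 are understated by the pseudocount. Replicate numbers paired the libraries within each line, since deviations from the group means correlated between libraries of the same number (0.19 to 0.359 in 769-P, 0.46 to 0.735 in ACHN), so fits with the number as a block are given where they change a call. Whole reads were recovered from the FPKM with GENCODE 29 exon lengths (95.7% of values within 0.05 of a whole read). Recovered reads served for depth and for limma-voom, as an alternative. On simulated data 70.6% of genes changed by 1 on the log2 scale were recovered in 769-P and 37.2% in ACHN. The simulated noise was independent between libraries and genes, without the shared replicate numbers of these data. Those shares therefore do not give the power of the tests here. DESeq2, which the authors used, was not run.

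Named genes were all members, NUF2, MYCN, MYCL and MLXIPL, and, per list and line, up to 2 genes with the lowest and 2 with the highest log2 change among those past the threshold without the block, or with it where none passed. A result that this rule names is not reported here. The genes nearest in pattern to MXD1 and to MXI1 were the 3 with the smallest root-mean-square difference. Python 3.11.15 drew the figures.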

Additional observations from a re-analysis of the deposited data

Results flagged for a closer look

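MXD4 was the member whose response to siNUF2 differed between the lines, by 0.648 on the log2 scale (769-P minus ACHN): all 3 pairs of 769-P moved up and all 3 of ACHN moved down. In limma the BH-adjusted p of this difference was 1.00 without the replicate block and 0.0364 with it. Groups of 3 libraries were too small for a test of single outlying libraries.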

How the results depend on the processing

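In 769-P 1412 genes passed, and 635 did with no filter on low values, 3898 with the replicate block, 700 with all 12 libraries in 1 fit, and 357 to 1146 when each library was left out in turn. The lowest counts were without siNUF2 replicate 3 (357) and siControl replicate 2 (365). In ACHN 0 passed (1238 at an unadjusted p under 0.05), 1843 with the replicate block, 171 with all 12 libraries and 0 whichever library was left out. Between the lines under siControl 9460 passed, 6278 with a minimum of 1 FPKM in every library, and 7287 to 8129 with 1 library left out. There the numbers only name the libraries (correlations of −0.057 to 0.043), and 9146 passed with the block. For the interaction 0 passed (776 at an unadjusted p under 0.05), 2 with a pseudocount of 0.01, 15 with no filter, 249 with the replicate block and 0 to 1 with 1 library left out.

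For the members, MXD1 and MXI1 stayed below 0 in both lines under every setting run, with log2 changes of −0.99 to −0.45 for MXD1 in 769-P (the smallest at a pseudocount of 1) and −1.38 to −0.80 in ACHN, and of −0.55 to −0.40 and −0.71 to −0.56 for MXI1. The difference of these changes between the lines ran from −0.0434 to 0.505 for MXD1 and from 0.075 to 0.253 for MXI1. The block turned MXD3 in 769-P and MXD4 in both lines and in the interaction into calls, and it changed no other call among the members tested. Leaving out 1 library turned the direction of changes that had not passed, with log2 values of −0.16 to 0.10 for MYC, −0.0879 to 0.0633 for MAX and −0.26 to 0.25 for MXD3 in ACHN. The same held in 769-P for MNT at −0.13 to 0.0334 and MLX at −0.0492 to 0.0687, in the interaction for MYC at −0.24 to 0.0228 and MNT at −0.0276 to 0.14, and between the lines for MXD4 at −0.058 to 0.38. The cause was not tested.

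Precision was limited by the spread between libraries, which was larger in ACHN (median SD of 0.221 on the log2 scale with siControl) than in 769-P (0.144), and, for MXD1 in 769-P, by reads.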
